A study of Mus musculus with 3 samples.

Results

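The insulin-like growth factor (IGF) genes described here are Igf1, the receptors Igf1r and Insr, and the binding proteins Igfbp2, Igfbp3, Igfbp4, Igfbp5 and Igfbp7, together 8 of the 18738 genes listed in the count tables. They were taken from the tables by gene symbol, and all 8 were found in each of the 3 tables. The samples were fetal ovarian somatic cells (FOSCs) from CD1 mice at E12.5, held as 3 cryopreserved lots (26, 29 and 30) and profiled by 10X Genomics 3′ single-cell RNA sequencing after thawing. Each lot pooled the ovaries of the embryos of 10 pregnant mice, with the mesonephros cut away and germ cells depleted on a magnetic column with antibodies against SSEA1 and CD31. All lots belong to 1 untreated condition, so they serve as replicates (n = 3), and the comparisons are between cell classes of the same lots.

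IGF1 and IGF2 are secreted growth factors that signal through the IGF1 receptor and, for IGF2, through a form of the insulin receptor, and the receptor kinases feed the PI3K and AKT branch. IGF-binding proteins hold the ligands in the extracellular space and either limit or prolong their action, and proteases such as PAPP-A release the ligand from some of them. In the postnatal ovary this system is known for its part in the growth of follicles and in steroid production.

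The tables held 9763, 8567 and 10773 barcodes for lots 26, 29 and 30. After the cell filter (200 to 9000 genes, at most 10% mitochondrial UMIs) 28971 of 29103 barcodes remained, with 125898949, 87474664 and 141398825 unique molecular identifiers (UMIs) in turn. Lot 29 was the shallowest per cell too, with a median of 8949 UMIs against 11126 and 11595. Clustering gave 22 clusters, which were named from marker lists as pre-granulosa-like (12692 cells), stromal-like (6192), epithelial-like (6079), germ-like (1474), endothelial-like (349), macrophage-like (135), red blood cell-like (78) and mesonephric tubule-like (77). These 8 classes entered the tests. A Sertoli-like cluster (388 cells), a neural or chromaffin-like one (53) and unnamed clusters 12 (731) and 13 (723) did not, and their levels are given as values. The study found a few contaminating Sertoli cells, a cell type of the testis, in every lot and left them out. The 8 genes and 40 others of the pathway were kept out of the genes used for clustering, but the classes still come from the same cells as the levels. In the label check, the summed pre-granulosa markers were 3890 to 4481 CPM in pre-granulosa-like cells against at most 1126 CPM in the other large classes, the stromal markers 2815 to 3254 CPM in stromal-like cells against at most 1097 CPM, and the epithelial markers 561 to 687 CPM in epithelial-like cells against at most 57.5 CPM. The names of clusters 3 and 11 are less certain. Cluster 3, 2372 of the 6192 stromal-like cells, scored 1.88 on the mural list and 1.77 on the stromal list, and it was named stromal-like because fewer than 2 mural markers were found in 60% of its cells. Its 10 leading genes hold the mural marker Acta2 and no stromal marker. Cluster 11, 808 of the pre-granulosa-like cells, was led by Pax8, a mesonephric tubule marker, with no pre-granulosa marker among its 10 leading genes. Without cluster 3, stromal-like cells had 34.1 in place of 31.3 CPM of Igf1r, 70.0 in place of 53.4 CPM of Igfbp3, 477 in place of 527 CPM of Igfbp4, 612 in place of 636 CPM of Igfbp5 and 144 in place of 139 CPM of Igfbp7. Calls between large classes that changed without cluster 3, or without clusters 9, 11 and 15 together, are given with the genes. Cluster 11 was not left out alone. Levels are CPM, the UMIs of a gene scaled to 1e6 UMIs of its class and lot. They compare classes for 1 gene and not 1 gene with another. 69 pairs of kept cells in different lots shared a barcode.

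Igfbp2 and Igfbp5 are neighbours on chromosome 1 with their 3′ ends facing each other, at chr1:72824503-72852474 on the plus strand and chr1:72857932-72874884 on the minus strand, 5457 bases apart (GRCm38, GENCODE). Igf1 lies at chr10:87858265-87937042 (plus), Igf1r at chr7:67952827-68233668 (plus) and Insr at chr8:3122061-3279617 (minus). Igfbp3 lies at chr11:7206086-7213923 (minus), 3539 bases from Igfbp1, Igfbp4 at chr11:99041244-99054392 (plus) and Igfbp7 at chr5:77349240-77408041 (minus). Exons of Igfbp7 overlap those of Polr2b on the other strand over 85 bases. The strand setting of the counting was not given in the sources used here, so reads from that stretch cannot be assigned to either gene with certainty.

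The promoters of the 3 genes with the largest differences between stromal-like and pre-granulosa-like cells are shown, as the 250 bases before the RefSeq start (GRCm38.p6, 5′ to 3′ along each gene). RefSeq promoters were matched for 7 of the 8 genes. Capitals mark matches on either strand to TATAAA, the GC box GGGCGG, the nuclear receptor element AAGGTCA, the GATA element AGATAA or the E box CACGTG. None of these motifs overlaps another in the 3 windows.
Igfbp2, chr1:72824230-72824479, plus strand: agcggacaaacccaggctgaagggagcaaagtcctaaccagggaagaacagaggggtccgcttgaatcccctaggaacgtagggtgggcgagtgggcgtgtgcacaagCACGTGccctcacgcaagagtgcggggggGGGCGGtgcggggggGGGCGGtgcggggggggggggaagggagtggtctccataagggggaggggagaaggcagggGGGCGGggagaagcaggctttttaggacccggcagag
Igfbp5, chr1:72874866-72875115, minus strand: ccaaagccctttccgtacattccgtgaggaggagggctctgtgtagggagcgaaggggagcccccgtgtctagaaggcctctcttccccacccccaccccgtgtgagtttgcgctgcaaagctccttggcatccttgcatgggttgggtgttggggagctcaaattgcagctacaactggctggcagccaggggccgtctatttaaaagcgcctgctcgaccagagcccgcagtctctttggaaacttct
Igfbp7, chr5:77408046-77408295, minus strand: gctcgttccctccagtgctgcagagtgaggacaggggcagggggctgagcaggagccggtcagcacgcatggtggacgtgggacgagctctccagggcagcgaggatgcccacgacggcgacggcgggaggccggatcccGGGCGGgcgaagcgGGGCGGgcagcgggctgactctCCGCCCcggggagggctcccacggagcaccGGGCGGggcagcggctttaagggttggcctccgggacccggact
The window of Igfbp2 holds 3 GC boxes and 1 E box, and that of Igfbp7 holds 4 GC boxes. The window of Igfbp5 holds none of the 5 motifs and has a GC content of 58.8%, against 67.2% for Igfbp2 and 74.0% for Igfbp7. Of all 32851 RefSeq promoters, 32.7% hold a GC box, 6.02% the E box, 12.4% TATAAA, 9.99% AGATAA and 4.08% AAGGTCA in the same window.

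Igf1, the ligand, was highest in endothelial-like cells and lowest in germ-like, mesonephric tubule-like and red blood cell-like cells among the 8 tested classes. Its level was 157, 101 and 152 CPM in endothelial-like cells of lots 26, 29 and 30, and 90.9, 128 and 101 CPM in macrophage-like cells. Among the large classes it was 96.0, 81.5 and 88.1 CPM in pre-granulosa-like, 81.0, 47.7 and 63.2 CPM in epithelial-like and 63.1, 46.4 and 53.2 CPM in stromal-like cells. Every lot of pre-granulosa-like cells was above every lot of the other large classes, while epithelial-like and stromal-like cells overlapped. In the edgeR quasi-likelihood fit over all classes, Igf1 was lower in stromal-like than in pre-granulosa-like cells by a log2 fold change of -0.84 ± 0.18 (SE, adjusted p = 0.000343). It was also lower in epithelial-like than in pre-granulosa-like cells (-0.52 ± 0.18, edgeR adjusted p = 0.0178), although this call was lost without lot 30 (adjusted p = 0.147) and by DESeq2 (adjusted p = 0.0705). Between stromal-like and epithelial-like cells the difference was -0.31 ± 0.18 (edgeR adjusted p = 0.206), and it passed the threshold with the lot as a block (-0.30, adjusted p = 0.00964) and without lot 29 (-0.38, adjusted p = 0.0243). Of the neighbours in the order of the 8 classes, pre-granulosa-like above epithelial-like and stromal-like above mesonephric tubule-like cells (12.7 ± 8.33 CPM, SD, n = 3, edgeR adjusted p = 0.000111) passed the test. Endothelial-like, macrophage-like and pre-granulosa-like cells could not be separated from their neighbours at the top.

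Igf2, the fetal ligand, passed the test in none of the 3 comparisons of large classes. Its mean was 364 ± 34.0 CPM in stromal-like, 343 ± 28.3 CPM in pre-granulosa-like and 328 ± 28.8 CPM in epithelial-like cells (SD, n = 3), and the edgeR adjusted p of the 3 comparisons lay between 0.591 and 0.849. In endothelial-like cells it was 710 ± 143 CPM.

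Igf1r, the receptor kinase for both ligands, was higher in stromal-like cells than in either other large class. It was 35.4, 29.2 and 29.3 CPM in stromal-like cells of lots 26, 29 and 30, 24.7, 18.3 and 21.2 CPM in epithelial-like cells, and 17.9, 13.7 and 15.3 CPM in pre-granulosa-like cells. The 3 classes did not overlap, although the lowest lot of epithelial-like cells lay just above the highest of pre-granulosa-like cells. The log2 fold change of stromal-like over pre-granulosa-like cells was 0.87 ± 0.15 (SE, edgeR adjusted p = 1.67e-05). Over epithelial-like cells it was 0.47 ± 0.15 (edgeR adjusted p = 0.0143), which lost the call without lot 26 (adjusted p = 0.0592) or lot 30 (adjusted p = 0.197). Epithelial-like exceeded pre-granulosa-like cells by 0.40 ± 0.15 (edgeR adjusted p = 0.0282), a call lost without lot 26 (0.0933) or lot 30 (0.327), by DESeq2 (0.0625) and with other size factors in edgeR (0.0575, all adjusted p). Endothelial-like cells (32.0 ± 10.3 CPM, SD, n = 3) and stromal-like cells could not be separated.

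Insr, the insulin receptor, was highest of the 8 tested classes in endothelial-like cells, at 38.0, 16.8 and 32.9 CPM in lots 26, 29 and 30. In stromal-like cells it was 17.4, 12.6 and 17.4 CPM, in epithelial-like cells 11.1, 8.12 and 10.7 CPM, and pre-granulosa-like cells had 12.3, 9.25 and 11.3 CPM. Stromal-like cells of every lot lay above both other large classes. The log2 fold change over epithelial-like cells was 0.59 ± 0.19 (SE, edgeR adjusted p = 0.0169), and the call was lost without lot 26 (adjusted p = 0.102) or lot 30 (adjusted p = 0.184). Over pre-granulosa-like cells it was 0.40 ± 0.18 (edgeR adjusted p = 0.0731), and it was called with the lot as a block (adjusted p = 0.000625), without lot 29 (adjusted p = 0.00859), without cluster 3 (adjusted p = 0.0420) and without clusters 9, 11 and 15 (adjusted p = 0.0365). No pair of neighbours in the order of the 8 classes differed past the threshold for Insr. Igf2r, the scavenger receptor of IGF2, was higher in stromal-like cells (138 ± 16.6 CPM) than in pre-granulosa-like (76.4 ± 6.64 CPM, log2 fold change 0.73 ± 0.17, edgeR adjusted p = 0.000714) and epithelial-like cells (84.1 ± 11.9 CPM, 0.64 ± 0.17, edgeR adjusted p = 0.00411).

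**Figure D1:**
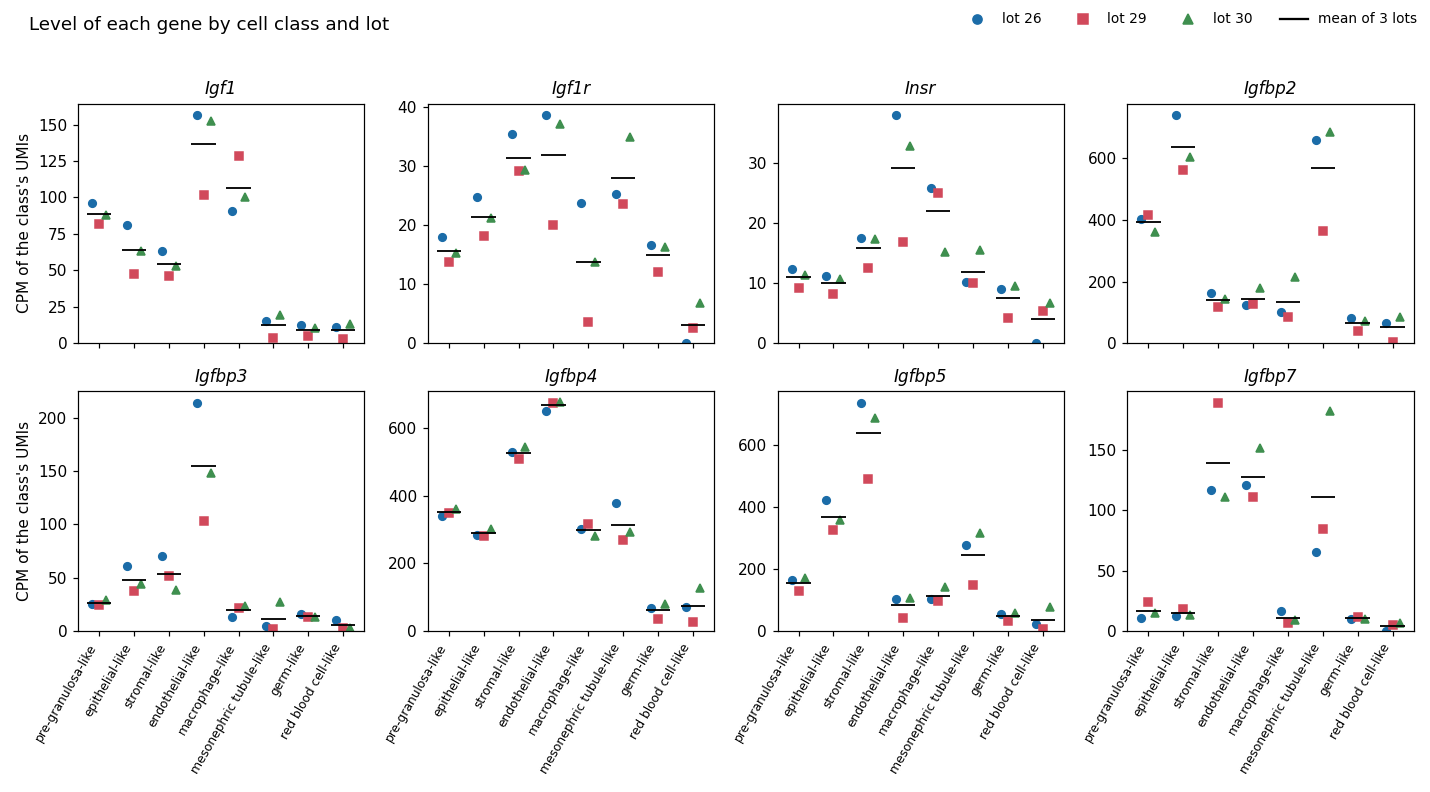
CPM (linear axis from 0) of each gene in the 8 tested classes, with 1 point per lot and a bar at the mean of 3 lots. Igf1, Insr, Igfbp3 and Igfbp4 have their highest means in endothelial-like cells, Igfbp2 in epithelial-like cells, and Igfbp5 and Igfbp7 in stromal-like cells.

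Igfbp2, a binding protein with a preference for IGF2, was the only binding protein of the 5 that was lowest in stromal-like cells among the large classes. It was 740, 562 and 605 CPM in epithelial-like cells of lots 26, 29 and 30, and 404, 415 and 360 CPM in pre-granulosa-like cells. In stromal-like cells it was 164, 116 and 143 CPM, and the 3 classes did not overlap. The log2 fold change of stromal-like cells was -2.25 ± 0.26 against epithelial-like cells (SE, edgeR adjusted p = 1.39e-07) and -1.61 ± 0.26 against pre-granulosa-like cells (edgeR adjusted p = 8.62e-06). Epithelial-like over pre-granulosa-like cells gave 0.64 ± 0.25 (edgeR adjusted p = 0.0411). This last call was lost without lot 26 (adjusted p = 0.251) or lot 30 (adjusted p = 0.224) and by DESeq2 (adjusted p = 0.0704). It was also lost in edgeR without cluster 3 (adjusted p = 0.0515) and with the stricter cell filter (adjusted p = 0.0530). Mesonephric tubule-like cells reached 658, 364 and 684 CPM and differed past the threshold from neither epithelial-like nor pre-granulosa-like cells.

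Igfbp5, a binding protein held in the extracellular matrix, was highest of the 8 tested classes in stromal-like cells, at 735, 489 and 685 CPM in lots 26, 29 and 30. It was 422, 324 and 359 CPM in epithelial-like cells and 165, 130 and 172 CPM in pre-granulosa-like cells. The 3 classes did not overlap, and lot 29 was the lowest in each. Stromal-like over pre-granulosa-like cells gave a log2 fold change of 1.90 ± 0.24 (SE, edgeR adjusted p = 2.89e-07) and epithelial-like over pre-granulosa-like cells 1.19 ± 0.24 (edgeR adjusted p = 0.000195). Stromal-like over epithelial-like cells gave 0.71 ± 0.24 (edgeR adjusted p = 0.0234). That call was lost without lot 26 (adjusted p = 0.175) or lot 30 (adjusted p = 0.150), and the value was 0.77 (adjusted p = 0.0588) without called doublets and 0.62 (adjusted p = 0.050, not under the threshold) without cluster 3.

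Igfbp7, a secreted matrix protein that binds IGFs weakly and is known from vessels, showed the largest difference of the 8 genes between large classes. It was 117, 189 and 112 CPM in stromal-like cells of lots 26, 29 and 30, against 10.5, 23.9 and 15.4 CPM in pre-granulosa-like and 12.6, 18.5 and 13.1 CPM in epithelial-like cells. The log2 fold change of stromal-like cells was 2.94 ± 0.26 over pre-granulosa-like (SE, edgeR adjusted p = 3.46e-10) and 3.17 ± 0.26 over epithelial-like cells (edgeR adjusted p = 3.2e-10). Epithelial-like and pre-granulosa-like cells did not differ past the threshold (-0.22 ± 0.25, edgeR adjusted p = 0.50). Endothelial-like cells had 121, 111 and 151 CPM and mesonephric tubule-like cells 65.8, 84.3 and 183 CPM, and the order of stromal-like, endothelial-like and mesonephric tubule-like cells could not be resolved. Mesonephric tubule-like cells exceeded pre-granulosa-like cells, the next in the order, by 2.34 ± 0.36 (log2, edgeR adjusted p = 1.34e-05). Unlike the other genes, Igfbp7 was highest in lot 29 in all 3 large classes.

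Igfbp4, a binding protein cut by the PAPP-A protease, had the smallest spread of the 8 across lots in the large classes. It was 651, 674 and 675 CPM in endothelial-like cells of lots 26, 29 and 30, 529, 509 and 544 CPM in stromal-like, 341, 348 and 362 CPM in pre-granulosa-like and 283, 281 and 303 CPM in epithelial-like cells. These 4 classes did not overlap. Stromal-like over epithelial-like cells gave a log2 fold change of 0.79 ± 0.17 (SE, edgeR adjusted p = 0.000617), and stromal-like over pre-granulosa-like cells 0.46 ± 0.17 (edgeR adjusted p = 0.0264). The latter call was lost without lot 26 (adjusted p = 0.199) or lot 30 (adjusted p = 0.116), and without cluster 3, a stromal-like cluster in which mural markers were raised (0.27, adjusted p = 0.189), and at a clustering resolution of 0.4 (0.29, adjusted p = 0.152). The summed mural markers were 208 to 294 CPM in stromal-like and 55.0 to 60.5 CPM in pre-granulosa-like cells, and their part in the result was not tested. Epithelial-like against pre-granulosa-like cells gave -0.33 ± 0.17 (edgeR adjusted p = 0.116), and it was called with the lot as a block (adjusted p = 0.0133).

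Igfbp3, the main carrier of IGFs in serum, was 214, 103 and 148 CPM in endothelial-like cells of lots 26, 29 and 30. In stromal-like cells it was 70.0, 51.9 and 38.5 CPM, in epithelial-like cells 60.9, 38.1 and 44.5 CPM, and in pre-granulosa-like cells 25.9, 24.8 and 29.3 CPM. Stromal-like and epithelial-like cells overlapped and differed by 0.09 ± 0.20 (log2, edgeR adjusted p = 0.792), and both exceeded pre-granulosa-like cells, by 0.87 ± 0.21 (edgeR adjusted p = 0.000898) and 0.79 ± 0.20 (edgeR adjusted p = 0.0026). Endothelial-like over stromal-like cells gave 1.59 ± 0.22 (edgeR adjusted p = 1.44e-06).

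In counts, 5 of the 8 genes were higher and 2 lower in stromal-like than in pre-granulosa-like cells, where 47.5% of all 13828 genes tested were called (21.9% higher, 25.6% lower). Their median log2 fold change was 0.67 against -0.03 over all genes. Against epithelial-like cells 5 were higher and 1 lower in stromal-like cells (30.6% of all genes called, 16.4% higher and 14.2% lower, median 0.53 against -0.01 over all genes), and 4 were higher and 1 lower in epithelial-like than in pre-granulosa-like cells (44.9% called, 20.1% higher and 24.8% lower, median 0.11 against -0.05). Leaving out lot 26 or lot 30 reduced the calls between stromal-like and epithelial-like cells from 6 to 3. Between epithelial-like and pre-granulosa-like cells they fell from 5 to 3 without lot 26, and to 2 without lot 30 or by DESeq2.

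**Figure D2:**
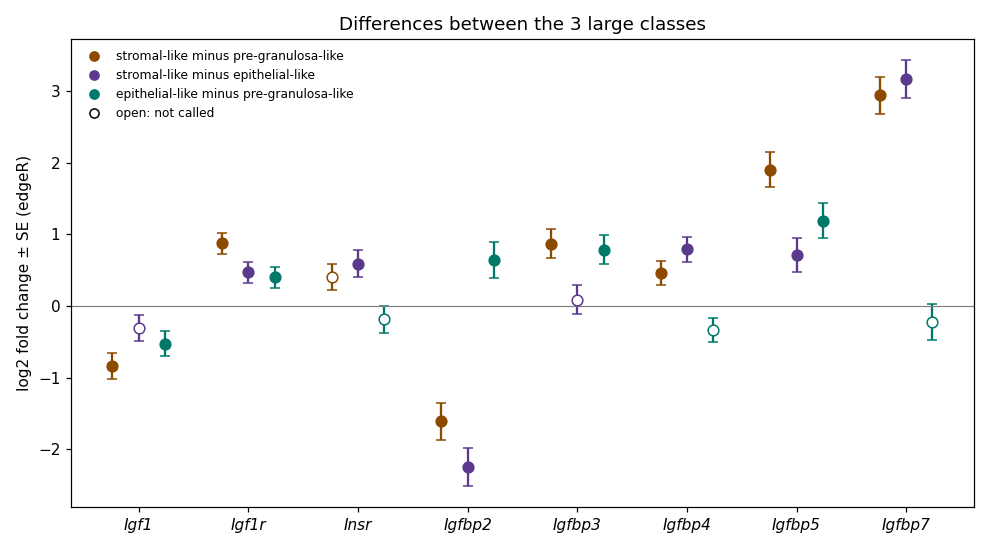
Log2 fold change (point) with its edgeR standard error (bar) for each gene in the 3 comparisons of the large classes, filled where the adjusted p passed the threshold of 0.05. Igfbp7 lies at 2.94 and 3.17 in both comparisons of stromal-like cells, and Igfbp2 at -1.61 and -2.25.

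The small classes were each compared with the mean of the log2 levels of the other 7 classes, contrasts that share their samples. In endothelial-like cells all 8 genes passed the test, 6 of them higher and Igfbp2 and Igfbp5 lower, where 28.8% of all genes were called (18.8% higher, 10% lower). Igfbp3 led with a log2 fold change of 2.88 ± 0.20 (SE, edgeR adjusted p = 4.52e-12), followed by Igfbp7 (2.34 ± 0.23, edgeR adjusted p = 6.81e-09) and Igf1 (1.94 ± 0.17, edgeR adjusted p = 6.37e-10). The call of Igfbp2 was lost without lot 26 (adjusted p = 0.415) or lot 30 (adjusted p = 0.290), and that of Igf1r without lot 30 (adjusted p = 0.130). The column step used an antibody against CD31, which marks endothelial cells, and 16.6% of the endothelial-like cells were called doublets. Without those, Igfbp5 was 45.3 in place of 84.2 CPM in them and Igfbp3 169 in place of 155 CPM.

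In germ-like cells 0 of the 8 genes were higher and 7 lower (edgeR), where 61.3% of all genes were called (36.4% higher, 24.9% lower). The largest differences were those of Igfbp4 (-2.53 ± 0.16, SE, edgeR adjusted p = 4.42e-13) and Igf1 (-2.46 ± 0.28, edgeR adjusted p = 1.98e-08). Igf1r gave -0.45 ± 0.20 (edgeR adjusted p = 0.0588), and it was called with the lot as a block (adjusted p = 0.0214) and without lot 29 (adjusted p = 0.0465). Igf1r in germ-like cells (16.6, 12.1 and 16.3 CPM) lay close to that in pre-granulosa-like cells, with an edgeR adjusted p of 0.412 between them. Of the germ-like cells 13.5% were called doublets, and without them Igf1 was 4.69 in place of 9.22 CPM and Igfbp4 36.4 in place of 61.6 CPM.

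In macrophage-like cells Igf1 was higher (1.40 ± 0.22, SE, edgeR adjusted p = 1.75e-05) and Igfbp2 and Igfbp7 were lower, where 22.8% of all genes were called (15.3% higher, 7.48% lower). Both lower calls were lost without lot 30 (adjusted p = 0.0800 and 0.235). Igfbp2 also lost its call without lot 26 (adjusted p = 0.497) and Igfbp7 without lot 29 (adjusted p = 0.0997). Igfbp5 gave -0.57 ± 0.23 (edgeR adjusted p = 0.0878), and it was called with the lot as a block (adjusted p = 0.00334) and without lot 29 (adjusted p = 0.00414). This class also led with the neutrophil genes S100a8, S100a9 and Camp. In mesonephric tubule-like cells Igfbp2 (1.42 ± 0.20) and Igfbp7 (1.76 ± 0.35) were higher and Igf1 (-2.49 ± 0.43) and Igfbp3 (-2.20 ± 0.60) lower, where 13.5% of all genes were called by edgeR (8.52% higher, 4.93% lower). Without lot 26 or lot 29 Igfbp3 was not called (adjusted p = 0.0726 and 0.296), nor was Igfbp7 without lot 30 (adjusted p = 0.0526). Igfbp5 gave 0.45 ± 0.22 (edgeR adjusted p = 0.205), and it was called with the lot as a block (adjusted p = 0.0443) and without lot 29 (adjusted p = 0.0230). In red blood cell-like cells 0 of the 8 genes were called by edgeR and 0 had an unadjusted p under 0.05, where 7.30% of all genes were called (2.82% higher, 4.48% lower), and their levels there (3.14 CPM for Igf1r up to 75.1 CPM for Igfbp4) rest on 3 to 61 UMIs in all. The median over all genes ran from 0.00 to 0.19 in the contrasts of the other small classes, and it was -0.66 for red blood cell-like cells.

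Shares of cells with at least 1 UMI were taken after thinning each cell to 4000 UMIs, since depth differs between classes. Igfbp4 was seen in 91.7% ± 1.37 of endothelial-like, 84.3% ± 1.05 of stromal-like, 70.7% ± 0.561 of pre-granulosa-like and 65.7% ± 1.46 of epithelial-like cells (SD, n = 3). Igfbp2 was seen in 73.4% ± 4.48 of epithelial-like, 61.7% ± 1.78 of pre-granulosa-like and 29.4% ± 4.51 of stromal-like cells, and Igfbp5 in 59.8% ± 3.03, 34.1% ± 4.16 and 71.7% ± 6.88 in turn. Igfbp7 was seen in 24.5% ± 3.02 of stromal-like cells and in 5.98% ± 2.43 of pre-granulosa-like and 4.92% ± 1.14 of epithelial-like cells. Igf1 was seen in 26.2% ± 1.84 of pre-granulosa-like cells, Igf1r in 8.03% ± 1.67 of epithelial-like and 6.04% ± 0.674 of pre-granulosa-like cells, and Insr in at most 12.9% of any tested class. Without thinning, Igfbp4 was seen in 96.5% of stromal-like, 91.8% of pre-granulosa-like and 35.7% of red blood cell-like cells, and Igfbp7 in 38.3% of stromal-like, 51.5% of endothelial-like and 4.88% of red blood cell-like cells. Thinning left out 28, 87 and 30 stromal-like cells of lots 26, 29 and 30, at most 42 cells of any other tested class and lot. Red blood cell-like cells gave 15.8% for Igfbp4, 14.6% for Igfbp2, 11.3% for Igfbp5, 4.01% for Igf1, 3.27% for Igfbp3, 0.980% for Igfbp7, and 0% for Igf1r and Insr. Shares of germ-like cells (18.0% for Igfbp4, 13.2% for Igfbp5) and the Igfbp5 share of endothelial-like cells (14.8%) were within the range over lots of red blood cell-like cells (up to 22.7%). Those lots held 20 to 36 such cells before thinning. In CPM, Igfbp5 was 84.2 in endothelial-like, 48.6 in germ-like and 35.8 in red blood cell-like cells, and Igfbp4 61.6 in germ-like and 75.1 in red blood cell-like cells. Whether these shares are background was not tested.

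**Figure D3:**
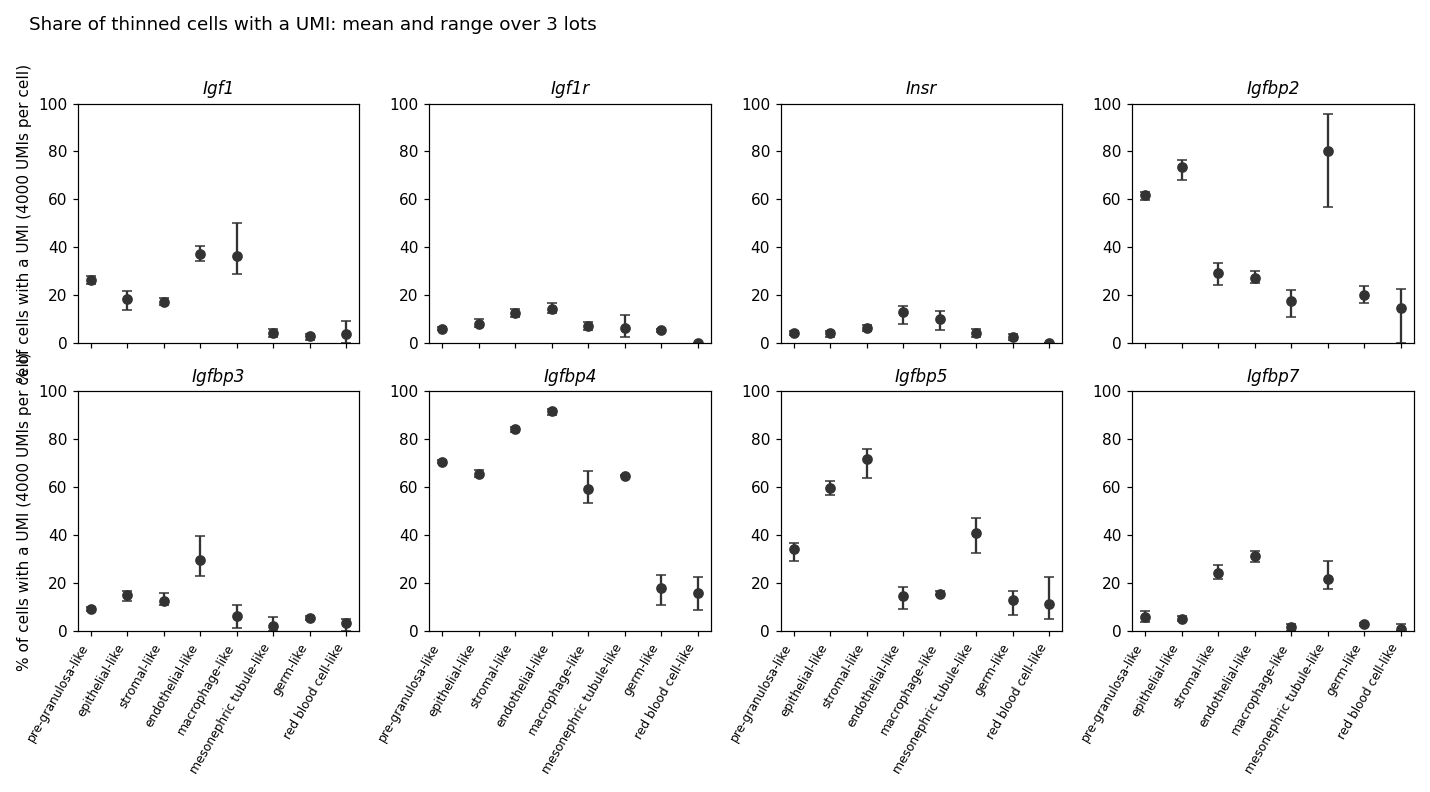
Percent of cells with at least 1 UMI of each gene after thinning to 4000 UMIs per cell, as the mean (point) and range (bar) over 3 lots. Igfbp4 was seen in 65.7% to 84.3% of the large classes, and Insr in 4.23% to 6.51% of them.

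The binding proteins also varied inside the large classes. The clusters were drawn from the same cells, so these values are a description. Epithelial-like cluster 4 had 1073, 896 and 780 CPM of Igfbp2 in lots 26, 29 and 30, against 306, 248 and 291 CPM in epithelial-like cluster 9, which was led by S100a6, Krt19 and Hand2. Igfbp5 ran the other way, with 373, 264 and 307 CPM in cluster 4 and 1024, 739 and 1010 CPM in cluster 9. Clusters 6 and 8, led by histone and mitotic genes, had 286 and 272 CPM of Igfbp5 on average, and lay between both for Igfbp2 (556 and 588 CPM).

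Among the clusters named pre-granulosa-like, the same pair differed between cluster 0 and cluster 11, which was led by Pax8. The name of cluster 11 is uncertain, as its leading genes hold no pre-granulosa marker. Igfbp2 was 482, 503 and 467 CPM in cluster 0 and 261, 262 and 244 CPM in cluster 11. Igfbp5 was 119, 81.6 and 110 CPM in cluster 0 and 818, 741 and 743 CPM in cluster 11, a ratio of 7.43. Cluster 11 also had less Igf1 (32.5 against 108 CPM), less Igfbp3 (7.77 against 27.6 CPM) and more Igf1r (32.3 CPM, at 39.1, 27.8 and 30.0 CPM in lots 26, 29 and 30, against 12.7 to 16.3 CPM) than cluster 0, with no overlap of lots. Cluster 1 had 43.6 CPM of Igf1 and 212 CPM of Igfbp2. Cluster 2 held 2861 cells of lot 30 among its 3123 and was led by the heat shock genes Hspa1a and Hspa1b. It differed from cluster 0 without overlap of lots in Igfbp3 alone among the 8 genes (33.9 against 27.6 CPM).

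In stromal-like cells Igfbp3 was highest in cluster 10, which was led by Lum, Vcan and Dcn. It was 295, 238 and 130 CPM there in lots 26, 29 and 30, against 18.1, 15.4 and 19.4 CPM in cluster 3 and 56.7, 45.0 and 34.0 CPM in cluster 5, led by histone and mitotic genes. Cluster 10 was also highest of the 5 stromal-like clusters for Igfbp5 (1089, 819 and 1422 CPM), Igf1r (56.0 CPM on average) and Insr (30.6 CPM). Igfbp7 ran the other way, with 35.7, 65.6 and 38.2 CPM in cluster 10, 127, 132 and 124 CPM in cluster 3 and 169, 320 and 157 CPM in cluster 5. Cluster 14, led by Foxd1 and Dkk2, had the most Igf1 (92.2 CPM) and the least Igfbp7 (24.6 CPM) of them. Cluster 15 had 82.1% of its cells called doublets. Cells with a UMI of the Y-linked genes named below made up 11.9% of cluster 5. They made up 5.58% of cluster 14, 4.91% of cluster 10, 4.53% of cluster 15 and 2.28% of cluster 3. Their part in the Igfbp7 levels of these clusters was not tested.

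**Figure D4:**
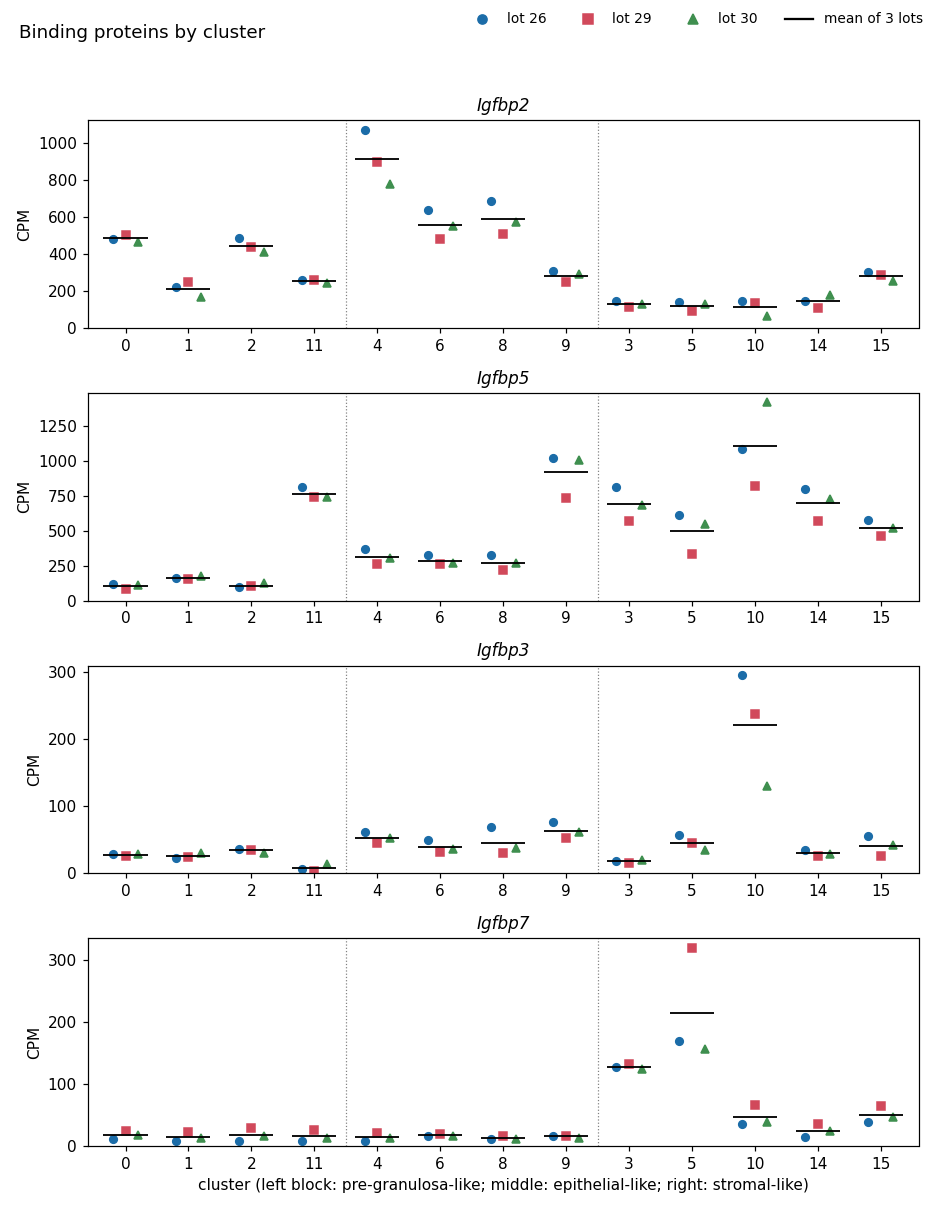
CPM (linear axis from 0) of 4 binding proteins in the 13 clusters of the large classes, with 1 point per lot and a bar at the mean. Igfbp2 is highest in cluster 4 and Igfbp5 is raised in clusters 9, 10 and 11, Igfbp3 in cluster 10 and Igfbp7 in cluster 5.

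Igfbp7 was followed further in cells with a UMI of the Y-linked genes Ddx3y, Eif2s3y, Kdm5d or Uty. Such cells made up 4.01%, 14.2% and 1.52% of stromal-like cells in lots 26, 29 and 30. Igfbp7 was 477, 417 and 433 CPM in them and 93.7, 137 and 105 CPM in the other stromal-like cells, with exact Poisson 95% intervals that do not overlap in any lot and cover counting error only. Without the cells with a Y-linked UMI, stromal-like over pre-granulosa-like cells still gave a log2 fold change of 2.64 for Igfbp7 (edgeR adjusted p = 3e-10), and over epithelial-like cells 3.01 (adjusted p = 1.07e-10). A cell without such a UMI is not shown to lack a Y chromosome. Of the Sertoli-like cells, a testis contamination, 78.1% had a Y-linked UMI, and they made up 0.906%, 3.32% and 0.149% of lots 26, 29 and 30. Whether the other cells with a Y-linked UMI came from testis was not tested. The part of cells with a Y-linked UMI in the height of lot 29 was not tested beyond these values.

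**Figure D5:**
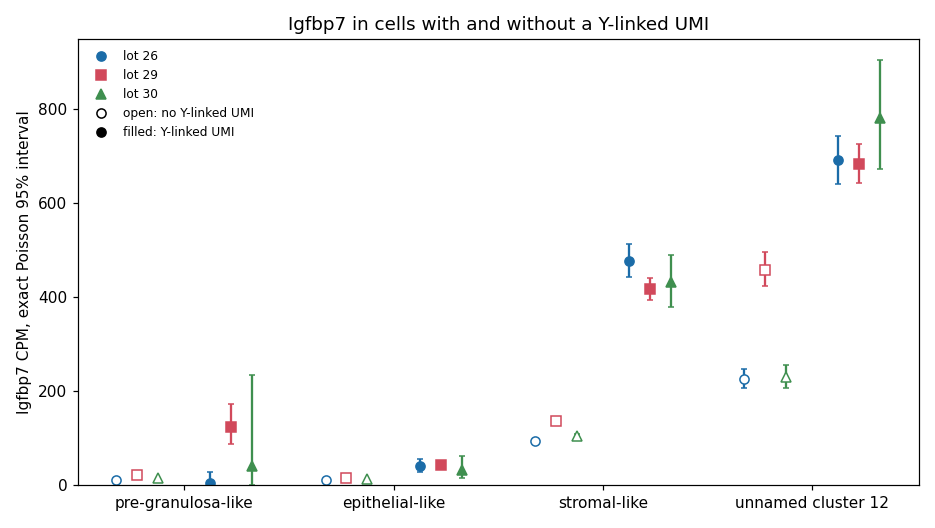
Igfbp7 CPM (linear axis from 0) in pre-granulosa-like, epithelial-like, stromal-like and unnamed cluster 12 cells without (open) and with (filled) a Y-linked UMI, with 1 point per lot and exact Poisson 95% intervals. In stromal-like cells the filled points lie between 417 and 477 CPM and the open ones between 93.7 and 137 CPM.

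Between lots, the 3 large classes gave 24 pairs of gene and class, and in 18 of them the highest lot was less than 1.5 times the lowest. Lot 29 was lowest in 18 pairs and lot 26 highest in 15. The widest spread was that of Igfbp7 in pre-granulosa-like cells (10.5 to 23.9 CPM, a ratio of 2.27), followed by Igfbp3 in stromal-like cells (1.82), Igf1 in epithelial-like cells and Igfbp7 in stromal-like cells (both 1.70). Igfbp4 stayed within a ratio of 1.08 in all 3 classes. With 1 library per lot these differences were not tested.

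In the classes outside the tests, Igf1r was 31.1, 19.6 and 18.5 CPM in Sertoli-like cells of lots 26, 29 and 30 and 28.3 ± 5.01 CPM in unnamed cluster 12 (SD, n = 3), both within the range of the tested classes. Sertoli-like cells had little Igf1 (7.49 ± 4.12 CPM), and their Igfbp7 was 40.0, 228 and 29.5 CPM in lots 26, 29 and 30. Igfbp4 was 522 ± 80.2 CPM in cluster 12 and 106 ± 39.9 CPM in Sertoli-like cells. The 53 neural or chromaffin-like cells gave 273 ± 37.7 CPM of Igfbp4 and 198 ± 18.5 CPM of Igfbp5.

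The wider pathway list held 48 genes, the 8 included, of which 44 were tested. Of these, 17 were higher and 7 lower in stromal-like than in pre-granulosa-like cells, where 21.9% of all genes were higher and 25.6% lower, with a median log2 fold change of 0.26 against -0.03 over all genes. Beside the genes above, the largest at 20 CPM or more were Pik3r1, a regulatory subunit of PI3K (112 against 25.2 CPM, 2.02 ± 0.20, SE, edgeR adjusted p = 2.58e-09), Grb10, an adaptor that restrains both receptors (293 against 102 CPM, 1.39 ± 0.16, edgeR adjusted p = 4.06e-08), and Pik3ca, a catalytic subunit of PI3K (0.71 ± 0.11, edgeR adjusted p = 1.08e-05). Akt2 (-0.45 ± 0.12, edgeR adjusted p = 0.00267), Grb2 (-0.35 ± 0.13) and Sos1 (-0.30 ± 0.10) were lower. Against epithelial-like cells 18 were higher and 3 lower in stromal-like cells (16.4% and 14.2% of all genes, median 0.25 against -0.01 over all genes). Among them were Shc1, an adaptor (0.74 ± 0.14, edgeR adjusted p = 9.39e-05), Htra1, a protease of binding proteins (0.50 ± 0.16, edgeR adjusted p = 0.0178), and Pik3ca (0.47 ± 0.11, edgeR adjusted p = 0.00224). In epithelial-like against pre-granulosa-like cells 13 were higher and 11 lower (20.1% and 24.8% of all genes, median -0.05, as over all genes). Pik3r1 (1.70 ± 0.20), Grb10 (0.98 ± 0.16) and the mRNA-binding proteins Igf2bp1 (0.56 ± 0.14) and Igf2bp3 (0.44 ± 0.11) were higher, and Foxo3, a transcription factor held back by AKT (-0.71 ± 0.18), Htra1 (-0.63 ± 0.16), Akt2 (-0.45 ± 0.12) and Pik3r2 (-0.33 ± 0.11) were lower (edgeR). Of the 6 proteases of binding proteins and their inhibitors, 3 were higher and 1 lower in stromal-like than in pre-granulosa-like cells, and 4 were higher and 1 lower than in epithelial-like cells. They lie mostly under 20 CPM and are named after their values were seen. Adam12, a protease, was 12.3 CPM in stromal-like, 0.546 CPM in pre-granulosa-like and 0.708 CPM in epithelial-like cells (log2 fold changes 4.35 ± 0.26 and 4.07 ± 0.26, SE, edgeR adjusted p = 6.94e-13 and 9.5e-12). Stc1, an inhibitor of PAPP-A, was 18.7 CPM in stromal-like cells and exceeded both other classes (2.73 ± 0.23 and 1.26 ± 0.21, edgeR adjusted p = 1.21e-10 and 3.34e-05). Pappa2, a protease that cuts Igfbp5, was highest in epithelial-like cells at 12.3 CPM, against 2.67 CPM in stromal-like and 0.242 CPM in pre-granulosa-like cells (edgeR adjusted p = 8.75e-07 between epithelial-like and stromal-like cells). Pappa itself exceeded epithelial-like cells in stromal-like cells (7.09 against 2.08 CPM, 1.68 ± 0.22, edgeR adjusted p = 1.06e-06), and Stc2 was lower in stromal-like than in pre-granulosa-like cells (1.21 against 2.50 CPM, -1.19 ± 0.25, edgeR adjusted p = 0.000344). Of the adaptors and the PI3K branch, 7 of 22 were higher and 4 lower in the first of these comparisons, and 8 higher and 1 lower in the other, beside the same shares over all genes.

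Likeness to each gene was measured as Pearson's r of log2(CPM + 1) over the 24 sums of 8 classes in 3 lots, among 8281 genes. The sums of a lot share a library and those of a class share a cell type, so r is a description. Igfbp4 was most like Anxa5 (r = 0.983), Cmtm3 and Svil (both 0.972), and Igfbp5 most like Palld (0.958), Gpc3 (0.940) and Alcam (0.938). Igf1r was followed by Farp1 (0.958), Fbxo11 (0.957) and 2700081O15Rik (0.948), and among the nearest to Insr were Mgat1 (0.939) and Plekho1 (0.935). Among the nearest to Igfbp2 were Arl3 and Nos1ap (both 0.930) and Lgr5 (0.921), to Igfbp7 Frmd4a (0.904) and Adamts9 (0.900), to Igf1 Elf4 (0.926), S1pr1 (0.903) and Necap2 (0.897), and to Igfbp3 Slc9a3r2 (0.868), Grk5 (0.842) and Itga5 (0.828). Between the 8 genes themselves the highest r was 0.826 (Igf1r and Igfbp7) and the lowest 0.255 (Insr and Igfbp2).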

How the data were processed

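UMI counts per gene and cell were deposited by the authors without normalization for the 3 lots. Per their methods and processing notes, valid barcodes were found with UMI-tools, STAR 2.7 served as aligner (GRCm38), and featureCounts 2.0.1 assigned reads to genes. The annotation release and strand setting are not given in the sources used here. Cells with 200 to 9000 genes and at most 10% mitochondrial UMIs were kept, merged, log-normalized and clustered in Seurat 5.3.0 (R 4.3.3) on 2000 variable genes and 50 principal components at a resolution of 0.8. Of the 48 IGF pathway genes, 11 would have been among the variable genes and were left out. Clusters were named from marker lists (minimum score 1, 3 raised markers, 2 markers in at least 60% of cells, and a margin of 0.25 over the next list that met these conditions), and 2 stayed unnamed. Doublets were called with Scrublet in scanpy 1.11.5 (expected rate 8%) at 5.83%, 4.06% and 5.93% of cells in lots 26, 29 and 30, and kept in the main results.

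UMIs were summed per class and lot (at least 10 cells, smallest sum 184947 UMIs) and tested by the quasi-likelihood method of edgeR 4.0.16 (genes kept by filterByExpr, TMM scaling, p adjusted after Benjamini and Hochberg across 13828 genes, threshold 0.05) in 1 fit over 24 sums of 8 classes. Neighbours in an order of classes were compared in the same fit. Apart from pairs of large classes, they were not compared again with the lot as a block. Neighbours that did not pass the threshold are therefore not shown to be alike. DESeq2 1.42.0, other size factors, no low-count filter, the lot as a block, each lot left out, doublets removed, other resolutions (0.4 and 1.2), the held-out genes put back and a stricter cell filter (500 genes, 5%) were alternatives. Leaving out cluster 3, clusters 9, 11 and 15, cells with a Y-linked UMI, or the red blood cell-like class was added after the data were seen. The script was tested on simulated data for 1 comparison. Those counts were drawn independently, with no lot effect, so that test does not cover the pairing of sums within a lot. All sums of a lot derive from 1 pool of cells, which pairs them. Among 84 pairs of sums of the same lot, departures from the mean of the class had a median r of 0.483 (over 0.1 in 76), and the reported fit has no lot term.

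Cells were thinned to 4000 UMIs for shares. Intervals are exact (95%) and cover counting error only. The 8 genes were given. Of the others in the pathway list, up to 4 in each direction with the largest change among those called and at 20 CPM or more were named in each comparison of large classes, with Igf2 and Igf2r always, and the 3 genes most like each of the 8 (20 CPM or more in every lot of a class), a few of which are not reported here. Genes and lists were chosen with earlier results of these data known. Leading genes of clusters were named after their values were seen. Positions come from GENCODE's annotation of GRCm38. The deposited lots are 1 sample each. The p-values rest on the spread between 3 lots within a class, pooled over the 8 classes, and take the sums of a lot as independent.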

Additional observations from a re-analysis of the deposited data

Results flagged for a closer look

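Igfbp7 stood highest in cells that the comparisons did not use. In unnamed cluster 12 its mean was 421 CPM, at 382, 576 and 305 CPM in lots 26, 29 and 30, so that the lowest lot lay above the highest lot of any tested class (189 CPM). The cluster's 731 cells were led by steroidogenic genes such as Cyp11a1, Insl3, Cyp17a1 and Hsd3b1, and 37.8% of them had a UMI of a Y-linked gene. The summed level of the 6 steroidogenic markers in it ran from 75.5 to 1322 CPM over the lots. In cluster 12 cells with a Y-linked UMI Igfbp7 was 692, 683 and 782 CPM, and in the others 227, 459 and 230 CPM. The part of these cells in the level was not tested further, nor was their origin in ovary or testis.

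3 genes stood higher in unnamed cluster 13, whose cells were shallow (a median of 2665 UMIs), than in any tested class as a whole. The cluster's 723 cells were led by Lars2, Nfat5 and Ogt. Under the stricter cell filter, an unnamed cluster led by Lars2 and Nfat5 held 331 cells. In cluster 13 the mean of Igf1r was 80.9 CPM, where no lot of a tested class passed 38.7 CPM. Its mean of Insr was 71.9 CPM, where no lot passed 38.0 CPM, and that of Igfbp5 was 971 CPM, where no lot passed 735 CPM. Stromal-like cluster 10, taken alone, had a higher mean of Igfbp5 (1110 CPM). Among the classes and unnamed clusters, Igf2r (317 CPM) and Igf2 (981 CPM) had their highest means in cluster 13. The levels in cluster 13 rest on 165 UMIs of Igf1r, 168 of Insr and 2090 of Igfbp5 in all lots. After thinning to 2000 UMIs, Igf1r was seen in 13.2% ± 0.731 of the cluster's cells and in 5.16% ± 2.09 of endothelial-like cells (SD, n = 3). Thinning to 4000 UMIs left 77, 2 and 73 of its cells in lots 26, 29 and 30, and Igf1r was seen in 16, 0 and 16 of them, with a mean of 14.4% in endothelial-like cells. Depth per cell moved with this result, and its part was not tested.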

How the results depend on the processing

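Over 16 alternatives, the log2 fold changes of the 8 genes in the 11 comparisons were recomputed. None turned its sign with a call, 1312 values kept their side of the threshold, 52 lost the call and 36 gained it. The number of genes called among the 8 moved by more than 1.5 times in these cases. Between epithelial-like and pre-granulosa-like cells it was 2 in place of 5 by DESeq2. In macrophage-like cells it was 1 in place of 3 with other size factors, at resolution 0.4, without cluster 3 and without cells with a Y-linked UMI. Without 1 lot it ran from 3 to 7 (stromal-like against epithelial-like), from 2 to 5 (epithelial-like against pre-granulosa-like) and from 1 to 3 (macrophage-like). Over all genes the calls without 1 lot ran from 2158 to 4169 between stromal-like and epithelial-like cells (4228 with all lots) and from 3916 to 5997 between epithelial-like and pre-granulosa-like cells (6209 with all lots). With the lot as a block (replicate block), 7040 in place of 4228 genes were called between stromal-like and epithelial-like cells. Beside the calls given with the comparisons above, the block also called Insr in epithelial-like cells (-0.48, adjusted p = 0.0216) and Igf1 in stromal-like cells (0.38, adjusted p = 0.0234, edgeR) against the mean of the others, and it changed no other call of the 8 genes. In CPM, Igf1 was lower in stromal-like cells (54.2) than in the mean of the other classes (61.0). The contrast averages log2 levels, in which classes with little Igf1 weigh more. Among the large classes, resolution 0.4 called Igfbp3 (0.57, edgeR adjusted p = 0.0390) and Igf1 (-0.50, 0.0371) between stromal-like and epithelial-like cells and Insr between stromal-like and pre-granulosa-like cells (0.52, 0.0209), and it lost Igfbp4 between the latter (0.29, 0.152). Where a call was lost without a lot, fewer samples entered the fit, and the cause of the other changes was not tested. The number of lots (3) and the few cells of the small classes limit these tests.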
